A study of Mus musculus with 24 samples.

Results

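The Schlafen genes encode a family of proteins first described for their part in the growth control of thymocytes. The 7 family members listed by symbol, *Slfn1*, *Slfn2*, *Slfn3*, *Slfn4*, *Slfn5*, *Slfn8* and *Slfn9*, were all found among the 12091 genes of the deposited table. The family was selected on measured values, namely the much lower *Slfn3* of E0771-LG cells after knockdown of *Ptn*. Every member value of that contrast is therefore a description with no test, and the other 3 experiments, which share no samples with it, were tested.

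RNA was measured by bulk sequencing in 24 samples, 3 in each of 8 groups. 4T1 tumors grew from BALB/c mammary carcinoma cells implanted orthotopically in females 8 wk of age, and the mice received the anti-pleiotrophin (PTN) antibody 3B10 at 15 mg/kg or the mouse IgG control antibody C44 at the same dose. *MMTV-PyMT* tumors arose in FVB/N females that carry the polyoma middle T antigen under the mouse mammary tumor virus promoter. These mice received 3B10 or C44 from 8 wk of age, each also at 15 mg/kg. The E0771 line of C57BL/6 mammary adenocarcinoma and E0771-LG, a line derived from an E0771 lung metastasis, were cultured as populations with either an shRNA against *Ptn* (shPTN) or a control shRNA against EGFP (shCtrl). Each knockdown thus rests on a single shRNA, and both arms carried the vector and its puromycin selection. The methods of the study call the samples of a group biological replicates. What was repeated is not spelled out for the cell lines, so p-values there measure the spread between samples of a population only. Library depth, recovered from the steps in the values, was between 15.63 and 21.12 M reads in the 18 samples other than 4T1, with a median of 18.24 M. The depth of the 4T1 samples is unknown, and their values are on another scale. Over 9537 genes, the log2 level in C44 4T1 minus C44 *MMTV-PyMT* tumors changed by −0.78 per doubling of exon length (r = −0.50), beside −0.06 for *MMTV-PyMT* tumors minus E0771 cells. The 4T1 values were taken as normalized for length, though no source states it.

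Schlafen proteins share an N-terminal core with RNase or RNA-binding activity in several members. Mouse members are sorted by length into short forms (*Slfn1* and *Slfn2*), intermediate forms (*Slfn3* and *Slfn4*) and long forms with a helicase-like C-terminal part (*Slfn5*, *Slfn8* and *Slfn9*). Many of them are induced by type I interferon. Schlafen proteins as a family, not each of these 7 members, are known for work on lymphocyte quiescence, tRNA stability, myeloid cells and the response to replication stress. All 7 genes lie on chromosome 11 between 82951349 and 83215154 (GRCm38, GENCODE M21), a span of 263.8 kb, and are annotated as protein coding. *Slfn8* and *Slfn9* lie on the minus strand and the other 5 on the plus strand.

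The members resemble each other in sequence. Of all 50-base windows of the annotated transcripts, 14.58% of *Slfn8*, 11.24% of *Slfn9*, 8.15% of *Slfn4*, 7.39% of *Slfn3*, 4.27% of *Slfn2* and 0.61% of *Slfn1* occur exactly in another Schlafen transcript, and none of *Slfn5*. Of windows of 150 bases, 1.46% of *Slfn9* and none of the other 6 members occur in another Schlafen transcript. How many reads could not be assigned to a single member was not measured. *Slfn5* and *Slfn2* each overlap an antisense gene (*Slfn5os* and *Gm20234*), and the strand setting of the counting is not given in the sources used here.

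Because *Slfn5* and *Slfn2* both fell in E0771 cells, promoters are shown for the 5 members with enough reads in the cultured cells, those without a call included. All 7 members matched a RefSeq entry (GRCm38.p6), which runs from 250 bases before to 50 bases after an annotated start, and *Slfn8* has 2 such starts, of which the upstream one is shown. Capitals mark the letters GAAANNGAAA on either strand, the core of the interferon-stimulated response element (ISRE).
Slfn2, chr11:83064862-83065161, plus strand: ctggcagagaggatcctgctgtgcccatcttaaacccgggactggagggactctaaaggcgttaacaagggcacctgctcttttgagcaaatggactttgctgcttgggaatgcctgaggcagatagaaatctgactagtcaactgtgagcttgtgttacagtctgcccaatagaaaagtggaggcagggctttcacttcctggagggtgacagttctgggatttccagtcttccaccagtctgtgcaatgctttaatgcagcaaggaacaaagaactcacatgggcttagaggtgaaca
Slfn3, chr11:83191080-83191379, plus strand: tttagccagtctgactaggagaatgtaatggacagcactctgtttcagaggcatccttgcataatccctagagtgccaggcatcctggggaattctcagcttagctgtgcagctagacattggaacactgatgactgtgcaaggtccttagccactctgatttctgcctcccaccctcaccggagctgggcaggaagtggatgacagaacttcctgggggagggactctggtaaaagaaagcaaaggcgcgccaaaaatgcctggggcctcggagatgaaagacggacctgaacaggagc
Slfn5, chr11:82951852-82952151, plus strand: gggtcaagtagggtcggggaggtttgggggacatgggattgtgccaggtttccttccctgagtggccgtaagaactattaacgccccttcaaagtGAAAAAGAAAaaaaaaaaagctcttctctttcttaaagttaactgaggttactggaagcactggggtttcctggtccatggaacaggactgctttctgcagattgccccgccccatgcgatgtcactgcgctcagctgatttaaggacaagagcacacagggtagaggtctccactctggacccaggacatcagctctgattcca
Slfn8, chr11:83020761-83021060, minus strand: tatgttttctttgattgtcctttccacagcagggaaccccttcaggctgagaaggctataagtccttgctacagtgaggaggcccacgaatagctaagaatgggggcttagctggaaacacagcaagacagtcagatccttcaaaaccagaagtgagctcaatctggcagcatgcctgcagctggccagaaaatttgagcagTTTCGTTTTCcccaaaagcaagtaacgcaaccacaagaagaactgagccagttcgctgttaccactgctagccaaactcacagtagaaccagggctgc
Slfn9, chr11:82991781-82992080, minus strand: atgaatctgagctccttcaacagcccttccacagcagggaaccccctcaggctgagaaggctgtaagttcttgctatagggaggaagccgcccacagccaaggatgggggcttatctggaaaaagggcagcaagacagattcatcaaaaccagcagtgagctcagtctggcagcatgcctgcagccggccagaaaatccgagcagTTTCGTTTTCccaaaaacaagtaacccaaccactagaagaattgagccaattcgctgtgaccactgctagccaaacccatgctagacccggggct
The ISRE letters were found in *Slfn5*, *Slfn8* and *Slfn9*, 155, 48 and 45 bases before the start, counted to the first base of the match. The GENCODE gene of *Slfn5* starts further upstream, at 82951349, so the *Slfn5* window, placed by the RefSeq start, lies within that gene. In both *Slfn8* and *Slfn9* the site reads GAAAACGAAA on the strand opposite to the gene, so its reverse complement stands in capitals. None was found in this window of *Slfn1*, *Slfn2*, *Slfn3* or *Slfn4*. Of 32851 RefSeq promoters of the same length, 3.44% hold the ISRE letters. The letters TTCNNNGAA of the gamma-activated site were in 8.3% of all promoters and in none of the members', and a kappa-B motif was in 8.46% of all promoters, in *Slfn9* and in *Slfn1*. A match is a description of letters only and does not show that a factor binds.

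Levels are compared between members only per length, as RPKM (reads per kb of exon, scaled to library size), or on the log2 values for 4T1, which were taken as normalized for length. *Slfn2*, a short member needed for T cell quiescence and for the protection of tRNA, had the highest level in all 4 tumor groups. In C44 4T1 tumors its level was 7.77 ± 0.19 (log2 value, SD, n = 3), above *Slfn1* at 4.82 ± 0.20, and from *Slfn1* down to *Slfn5* at 3.44 ± 0.71 each member was within the spread of the next. In C44 *MMTV-PyMT* tumors *Slfn2* stood at 33.7 ± 9.05 RPKM, followed by *Slfn9* at 7.09 ± 1.95 and *Slfn8* at 4.64 ± 1.75, which did not differ from each other beyond their spread. *Slfn5* at 2.59 ± 0.299 RPKM and *Slfn4* at 1.14 ± 0.448 followed, each apart from its neighbours. *Slfn1* and *Slfn3* were the lowest there, with 0.413 ± 0.0383 and 0.221 ± 0.0675 RPKM.

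The order was different in the cultured cells. In E0771 shCtrl cells *Slfn9* led with 15.3 ± 1.27 RPKM (SD, n = 3), followed by *Slfn3* with 10.9 ± 2.04 and *Slfn2* with 6.31 ± 2.40, each apart from the next. *Slfn5* at 1.91 ± 0.396 and *Slfn8* at 1.69 ± 0.194 RPKM lay within each other's spread. In E0771-LG shCtrl cells *Slfn3* stood at 15.0 ± 0.586, *Slfn9* at 13.5 ± 6.95 and *Slfn2* at 8.36 ± 5.84 RPKM, where *Slfn9* lay within the spread of both others. *Slfn1*, a growth inhibitor of thymocytes, and *Slfn4*, a gene of myeloid cells, were close to absent from both lines. *Slfn1* had 0 reads in all 6 E0771 samples and 0 or 1 in each E0771-LG sample, and *Slfn4* had at most 2 reads in an E0771 and at most 6 in an E0771-LG sample. Fitted with no filter in E0771 cells, *Slfn4* had a log2 difference of 1.34 (SE 0.54, limma adjusted p = 0.14, unadjusted p = 0.0396 in the same limma fit), which rests on 1 read in all shCtrl against 4 in all shPTN samples. A count of 0 covers counting error only and does not show absence.

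The target of both treatments was examined first. *Ptn* had log2 CPM values of 2.90, 2.18 and 2.28 in E0771 shCtrl cells and of −0.63, 0.25 and 0.53 in shPTN cells, with no overlap, and its log2 difference was −2.40 (SE 0.37, limma adjusted p = 0.00159, lower in 3 of 3 samples). In E0771-LG cells it was 3.65, 4.51 and 3.74 against 1.42, 0.98 and 1.38, a log2 difference of −2.71 (SE 0.28). An antibody does not lower the transcript by design. The *Ptn* value was −0.19, −0.65 and −0.12 in C44 and −0.76, 0.86 and 0.37 in 3B10 4T1 tumors, too low to be tested. It was 2.80, 2.73 and 3.42 against 3.28, 2.95 and 4.22 log2 CPM in *MMTV-PyMT* tumors (adjusted p = 1.0).

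In E0771 cells, 2 of the 5 members with enough reads to test fell after *Ptn* knockdown, *Slfn5* and *Slfn2*. Genes entered the test if 3 or more samples of the experiment reached 1 unit on the linear scale, counted from the floor of the sample. A call means a Benjamini-Hochberg adjusted p of less than 0.05 in limma. In E0771 cells, 11.7% of the 10394 genes tested were called lower (1216 genes) and 8.89% higher (924 genes), and no member was called higher. The number called lower was 671 without shCtrl replicate 2, 648 without shCtrl replicate 3, 746 without shPTN replicate 3 and 663 with 18 samples fitted together. The number called higher was 597, 523, 492 and 447 in the same order.

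*Slfn5*, a long member that restrains the growth of some tumor cells, was measured at 3.31, 3.89 and 3.53 log2 CPM in E0771 shCtrl samples and at 2.24, 2.23 and 2.05 in shPTN samples. The groups did not overlap, and the shPTN samples lay close together. Its log2 difference was −1.40 (SE 0.20, 95% interval −1.85 to −0.96, limma adjusted p = 0.00109, lower in 3 of 3 samples), so that shPTN cells held 37.8% of the control level. The call was kept under every alternative tried.

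*Slfn2* was measured at 2.73, 3.87 and 3.37 log2 CPM in E0771 shCtrl samples and at 2.32, 1.92 and 2.63 in shPTN samples. All shPTN samples lay below all shCtrl samples, the closest pair being 2.63 and 2.73. The log2 difference was −1.03 (SE 0.29, limma adjusted p = 0.0295, lower in 3 of 3 samples), or 48.9% of the control level. This call depended on the samples and on the filter. Its adjusted p was 0.128 without shCtrl replicate 2, 0.0925 without shCtrl replicate 3, 0.0627 without shPTN replicate 2, 0.0687 with no filter and 0.125 with 18 samples fitted together.

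*Slfn3*, an intermediate member studied for its link to enterocyte differentiation, was measured at 5.17, 5.48 and 4.95 log2 CPM in E0771 shCtrl samples and at 4.27, 4.98 and 4.65 in shPTN samples. The groups overlapped by 1 pair, shPTN replicate 2 and shCtrl replicate 3. The log2 difference of −0.57 (SE 0.19, 95% interval −0.98 to −0.15) did not pass the threshold (limma adjusted p = 0.0558). It passed without shPTN replicate 2 (limma adjusted p = 0.0102) and in a fit blocked on replicate (0.00885), and the log2 difference was −0.38 without shPTN replicate 1.

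The long members *Slfn8* and *Slfn9*, whose roles are less well known, showed no call in E0771 cells. *Slfn8* ranged from 2.68 to 2.97 log2 CPM in shCtrl and from 2.37 to 3.06 in shPTN samples, with a log2 difference of −0.07 and an interval from −0.56 to 0.42. *Slfn9* ranged from 6.36 to 6.58 and from 6.36 to 6.85, with a log2 difference of 0.12 and an interval from −0.15 to 0.40. The log2 difference of *Slfn8* was −0.24 without shPTN replicate 3 and 0.11 without shPTN replicate 2, and that of *Slfn9* was 0.01 without shPTN replicate 2 and 0.26 without shPTN replicate 1. Both groups overlapped for each gene. Of the 5 members tested, 2 had all shPTN samples below all shCtrl samples, and 22.5% of all genes tested did. The median log2 difference of the 5 was −0.57, beside −0.03 over all genes tested.

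**Figure D1:**
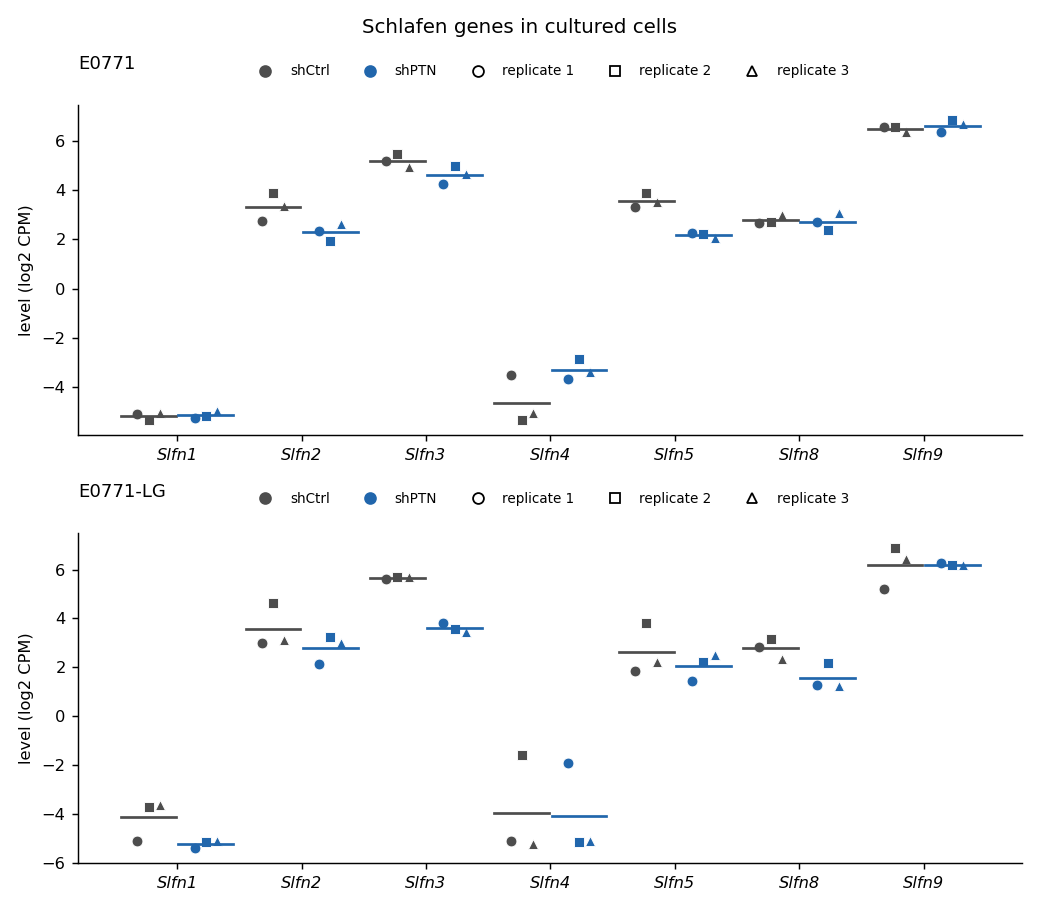
Level (log2 CPM, vertical axis) of each Schlafen gene in E0771 and E0771-LG cells, with 1 symbol per sample, shape for the replicate, gray for shCtrl, blue for shPTN and a line at the group mean of 3 samples. *Slfn5* and *Slfn2* separate in E0771 cells, *Slfn3* and *Slfn8* in E0771-LG cells, and *Slfn1* and *Slfn4* lie near the floor in both lines.

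E0771-LG cells gave the values by which the family was selected. *Slfn3* was measured at 5.60, 5.69 and 5.72 log2 CPM in shCtrl samples and at 3.82, 3.56 and 3.44 in shPTN samples. Both groups were tight and far apart, and shPTN cells held 23.9% of the control level, a log2 difference of −2.07 (SE 0.14). These values rest on 841 to 1013 reads in each control and 189 to 297 in each knockdown sample. In RPKM, *Slfn3* went from the highest mean of the family in shCtrl cells to 3.58 ± 0.485 in shPTN cells, beside *Slfn9* at 12.4 ± 0.404.

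*Slfn8* was measured at 2.84, 3.16 and 2.33 log2 CPM in E0771-LG shCtrl samples and at 1.26, 2.16 and 1.25 in shPTN samples. The groups did not overlap, with shPTN replicate 2 near the lowest control. The log2 difference was −1.22 (SE 0.33), resting on 93 to 175 reads in a control and 41 to 80 in a knockdown sample.

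The values of the other 3 members of that line changed with the control samples. *Slfn2* was 3.00, 4.65 and 3.12 against 2.15, 3.24 and 3.01 log2 CPM, and *Slfn5* was 1.85, 3.83 and 2.23 against 1.45, 2.21 and 2.51. In both, shCtrl replicate 2 stood above all other samples, and the remaining samples overlapped. The log2 difference of *Slfn2* was −0.79 (SE 0.50) with all samples and −0.26 without shCtrl replicate 2, and that of *Slfn5* was −0.58 (SE 0.52) and 0.01. *Slfn9* was 5.21, 6.90 and 6.43 against 6.26, 6.19 and 6.18 log2 CPM, so its controls spread on both sides of the shPTN samples, with log2 differences of 0.03 (SE 0.43) and 0.39. Without shCtrl replicate 1 the log2 difference was −0.45 for *Slfn9* and −0.98 for *Slfn5*, and without shPTN replicate 1 it was −0.28 for *Slfn5*. For *Slfn3* and *Slfn8* the values without shCtrl replicate 2 were −2.06 and −1.03. Over all 10405 genes tested there, 22.1% were called lower, 24.3% higher and 26.7% had every shPTN sample below every shCtrl sample. Without shPTN replicate 2, 1657 genes were called higher, beside 2531 with all samples. Nothing is read from these shares about the members, since this contrast chose the family.

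**Figure D2:**
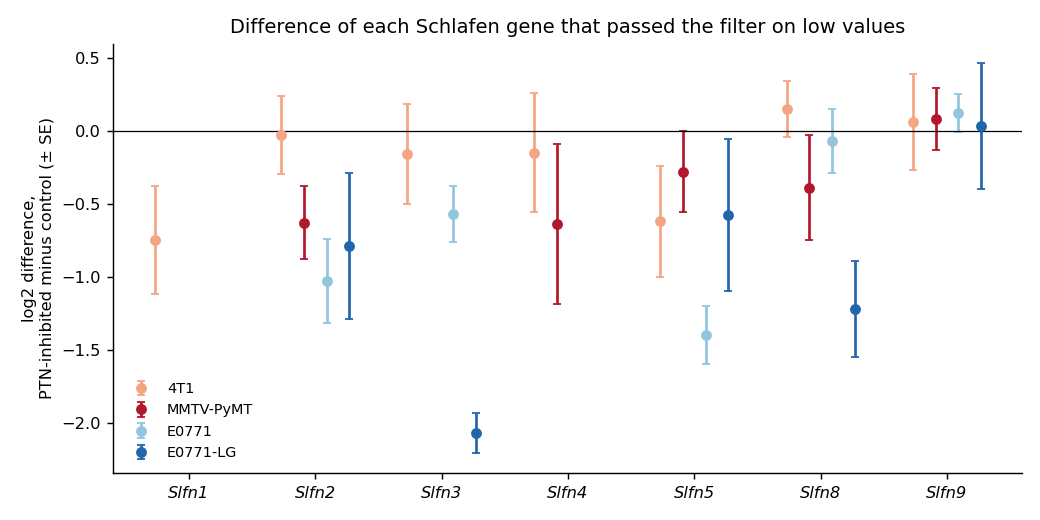
Log2 difference of each Schlafen gene, PTN-inhibited minus control (vertical axis), with bars of ± SE and a color for each of the 4 experiments of 6 samples. Genes below the filter on low values in an experiment have no point. The lowest point is *Slfn3* in E0771-LG cells at −2.07, and *Slfn9* lies between 0.03 and 0.12 in all 4 experiments.

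Among the members tested in E0771 cells, *Slfn5* had the largest fall. *Slfn3* fell most in E0771-LG cells, but that value chose the family. No difference between the lines is read from these 2 members. Whether the effect of knockdown on a member differs between the lines was not tested, because the E0771-LG contrast chose the members. In bulk samples, fewer cells of a type and less RNA per cell cannot be told apart.

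In 4T1 tumors, all 7 members were tested and none passed the threshold, and 0% of all 11467 genes tested did so with limma. At an unadjusted p under 0.05 there were 0 members, beside 6.27% of all genes. Without 3B10 replicate 1, 2 genes of the table were called, neither of them a member. *Slfn1* was measured at 5.05, 4.72 and 4.69 in C44 and at 4.18, 4.81 and 3.22 in 3B10 tumors (log2 values). The groups overlapped through 3B10 replicate 2, and the log2 difference was −0.75 (SE 0.37, limma adjusted p = 0.841). It was −0.32 without 3B10 replicate 3. *Slfn5* was 3.36, 4.19 and 2.77 against 2.42, 3.25 and 2.78, with a log2 difference of −0.62 (SE 0.38, limma adjusted p = 0.884), which was −0.25 without C44 replicate 2 and −0.96 without C44 replicate 3. The other 5 members had log2 differences between −0.16 and 0.15, with *Slfn2* at −0.03 and an interval from −0.67 to 0.61. No member of the 7 had every 3B10 tumor below every C44 tumor, whereas 4.42% of all genes did.

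In *MMTV-PyMT* tumors, 5 of the 7 members were tested, none passed the threshold, and 0% of the 11361 genes did so with limma. At an unadjusted p under 0.05, 1 member stood beside 2.7% of all genes. That member was *Slfn2*, measured at 6.08, 5.29 and 5.94 log2 CPM in C44 and at 4.86, 5.04 and 5.52 in 3B10 tumors. The groups overlapped, as 3B10 replicate 3 lay above C44 replicate 2. Its log2 difference was −0.63 (SE 0.25, limma adjusted p = 1.0, lower in 3 of 3 samples). *Slfn4* ranged from 1.74 to 2.72 and from 0.86 to 2.64 log2 CPM (log2 difference −0.64, SE 0.55). Its log2 difference was −1.23 without 3B10 replicate 1, −0.36 without 3B10 replicate 3 and −0.34 without C44 replicate 2 or 3B10 replicate 2. *Slfn5*, *Slfn8* and *Slfn9* had log2 differences of −0.28, −0.39 and 0.08. That of *Slfn8* was −0.07 without 3B10 replicate 1, −0.10 without C44 replicate 3 and −0.63 without 3B10 replicate 3. That of *Slfn5* was −0.59 without 3B10 replicate 1, −0.10 without 3B10 replicate 2 and −0.16 without 3B10 replicate 3. No member tested had every 3B10 tumor below every C44 tumor, beside 2.27% of all genes tested.

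*Slfn1* and *Slfn3* did not pass the filter in *MMTV-PyMT* tumors. *Slfn1* had 16, 15 and 13 reads in C44 tumors and 1, 5 and 4 in 3B10 tumors, with no overlap. Fitted with no filter, its log2 difference was −2.01 (SE 0.59, limma adjusted p = 0.999, unadjusted p = 0.0107 in the same limma fit), a difference that rests on 44 reads against 10 in all. *Slfn3* had 11, 13 and 19 reads against 9, 11 and 5, and these overlapped.

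**Figure D3:**
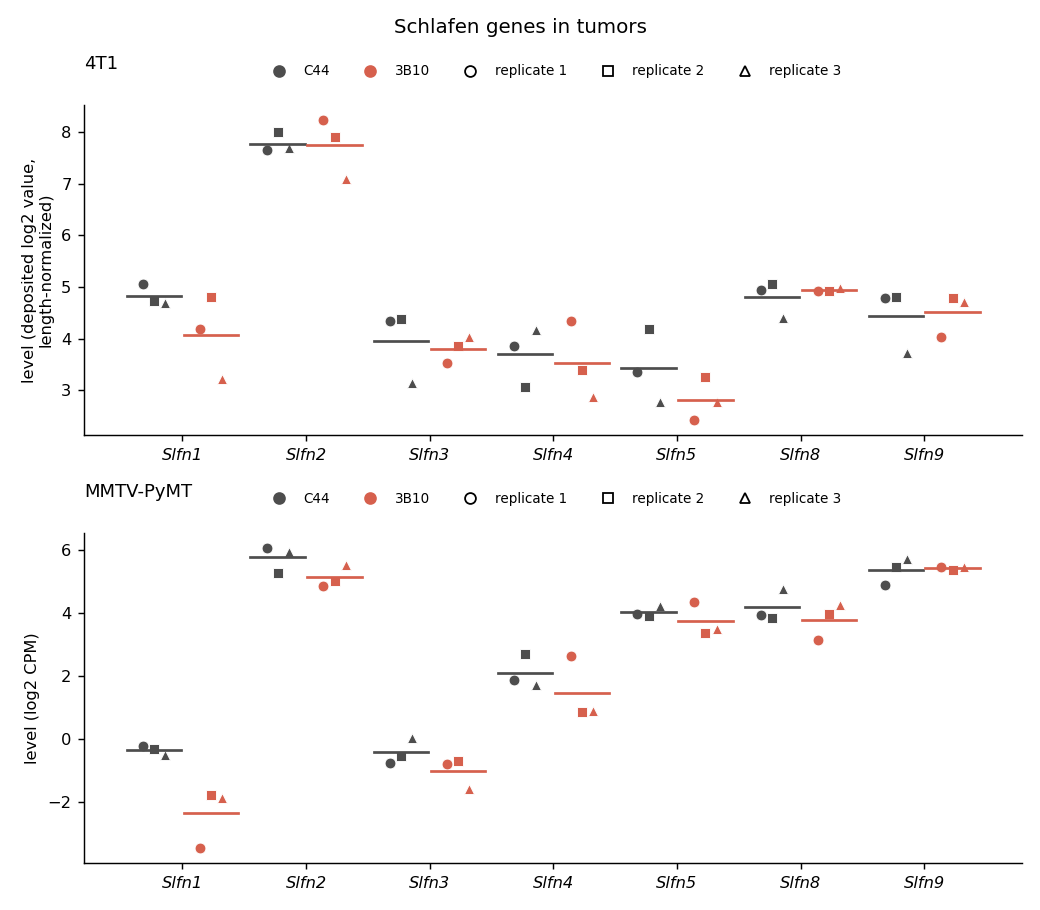
Level of each Schlafen gene in 4T1 tumors (deposited log2 values) and *MMTV-PyMT* tumors (log2 CPM), with 1 symbol per tumor, shape for the replicate, gray for C44, red for 3B10 and a line at the mean of 3 tumors. The groups overlap for every gene of both panels except *Slfn1* in *MMTV-PyMT* tumors.

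Whether 3B10 acted differently on a member in the 2 models was tested by an interaction term over the 10890 genes tested in both. None of the 5 members tested in both passed, 0% of all genes did so with limma, and 2.31% had an unadjusted p under 0.05, which no member had. The difference of log2 differences, *MMTV-PyMT* minus 4T1, was −0.60 for *Slfn2* (95% interval −1.48 to 0.28) and −0.54 for *Slfn8* (−1.47 to 0.39). These intervals are wide and do not show that the models respond alike.

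No marker of another cell type was called in 4T1 tumors with limma, and their levels are given as measured. Of all genes tested there, 6.27% had an unadjusted p under 0.05 and 48.4% had a lower mean. Of 10 T cell markers 6 were in the table, and the level summed over them was 77.5, 109.0 and 120.0 in C44 and 52.9, 60.9 and 19.2 in 3B10 tumors, with *Cd3g* the most abundant and none at 0. All 6 had an unadjusted p under 0.05 and were lower. Macrophage and monocyte markers, 10 of 10 in the table and led by *Lyz2*, were all lower, 6 of them at an unadjusted p under 0.05. Their summed level was 12900, 9880 and 12200 in C44 and 5570, 10000 and 6240 in 3B10 tumors. Neutrophil markers, 6 of 8 in the table and led by *S100a9*, were lower in 5 of 6, and 5 of the 6 had an unadjusted p under 0.05, with summed levels of 1200, 1220 and 1970 against 1250, 989 and 826. NK markers, 4 of 6 in the table and led by *Nkg7*, were lower in 4 of 4, 1 at an unadjusted p under 0.05, with summed levels of 106, 104 and 83.6 against 106, 43.8 and 27.3. General leukocyte markers, 4 of 4 in the table and led by *Laptm5*, were lower in 4 of 4, 2 at an unadjusted p under 0.05, with summed levels of 734, 725 and 707 against 556, 628 and 467. None of these was at 0. Mammary carcinoma markers, led by *Krt18*, were higher in all 5 of 6 tested, each at an unadjusted p under 0.05, with summed levels of 3190, 3460 and 3450 against 4940, 4460 and 5100. Fibroblast markers, 5 of 5 in the table, were lower in 2, with a median log2 difference of 0.33 and 2 at an unadjusted p under 0.05. Endothelial markers were lower in 3 of 3, with a median of −0.27 and none at an unadjusted p under 0.05. Their mean level was 4.37, 5.62 and 4.75 in C44 and 4.39, 5.33 and 4.14 in 3B10 tumors (log2 values), highest in C44 replicate 2, which was also the highest for *Slfn5*. Of 2 dendritic cell markers 1 was lower, with a median of −0.13. The part of these markers in the values of *Slfn1* and *Slfn5* was not tested.

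In *MMTV-PyMT* tumors, where 2.7% of all genes tested had an unadjusted p under 0.05, 39.0% had a lower mean and the median was 0.05, no marker was called with limma. The lists with medians below 0 were dendritic cell markers at −0.29 (2 of 2 lower), NK at −0.27 (1 tested), fibroblast at −0.18 (5 of 5 lower), carcinoma at −0.10 (4 of 6 lower) and neutrophil markers at −0.04 (2 of 4 lower). The median was 0.00 for macrophage, 0.01 for leukocyte and 0.12 for T cell and for endothelial markers. A single carcinoma marker and no other had an unadjusted p under 0.05. The part of these markers in the values of *Slfn2*, *Slfn4*, *Slfn5* and *Slfn8* was not tested either.

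In the cultured cells, some leukocyte markers were at 0 in every sample, *Cd3e*, *Cd3g*, *C1qa*, *C1qc*, *Itgam*, *S100a9*, *Csf3r* and *Nkg7* in E0771 and *C1qa*, *C1qb*, *C1qc*, *Adgre1*, *S100a9*, *Csf3r* and *Gzmb* in E0771-LG cells. In E0771 cells 2 of 6 T cell, 3 of 10 macrophage, 3 of 6 neutrophil and 1 of 4 NK markers in the table were at 0, and in E0771-LG cells 0, 4, 4 and 1. General leukocyte markers, 4 of 4 in the table, nevertheless summed to 15.4, 21.4 and 19.6 CPM in E0771 shCtrl and 47.3, 32.3 and 38.3 in shPTN samples, with *Coro1a* the most abundant. In E0771-LG cells they summed to 91.6, 88.3 and 88.6 in shCtrl and 47.4, 52.9 and 55.9 in shPTN samples, with *Laptm5* the most abundant. Their part in the Schlafen values was not tested. The calls that follow stand beside 11.7% of all genes tested called lower and 8.89% higher in E0771 cells, and 22.1% and 24.3% in E0771-LG cells, with limma. Of 6 mammary carcinoma markers, 2 were tested in E0771 and 3 in E0771-LG cells, with *Krt8* the most abundant in both lines and *Krt5* at 0 in E0771. All 3 were called higher in E0771-LG cells, led by *Krt18* and *Krt8*, and none was called in E0771 cells. Other calls in E0771 cells, all higher, were *Lck* of the T cell, *Lyz2* of the macrophage, *Laptm5* and *Coro1a* of the leukocyte and 4 of 4 tested fibroblast markers. With no filter, 1 T cell and 1 carcinoma marker were called lower in that line. In E0771-LG cells, 3 of 3 tested T cell markers were called higher (*Cd3d* at 1.78 and *Cd8b1* at 1.57 the largest). There, 1 macrophage marker was called lower (*Mrc1*) and 2 higher (*Cd68* at 2.17 and *Lyz2*). *Laptm5* was called lower, and of 5 fibroblast markers 2 were called lower and 1 higher. With no filter, the calls there were 2 T cell and 0 fibroblast markers higher, and 2 macrophage markers lower. Endothelial, dendritic and NK markers had no call where any was tested, and no NK marker was tested in either line and no endothelial marker in E0771 cells, neutrophil markers had 1 lower (*Mmp9*) in E0771-LG cells, and the 4 B cell markers were not analysed here.

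Interferon-induced effector genes, which like many Schlafen genes respond to interferon, are the nearest pathway to the family. Of 33 listed genes 31 were in the table, and the list was chosen with earlier results of these data known. In E0771 cells 15 of 29 tested fell and 0 rose, with a median log2 difference of −0.75 beside −0.03 over all genes tested, of which 11.7% were called lower and 8.89% higher. The largest falls were in *Oasl2* and *Oas3*, of the oligoadenylate synthetase family of RNA sensors, at −1.91 (SE 0.26, limma adjusted p = 0.000753) and −1.84 (SE 0.42, limma adjusted p = 0.0215). With 1 sample left out at a time the count ran from 9, without shCtrl replicate 3, to 16. In E0771-LG cells 12 of 29 were called lower and 0 higher, with a median of −1.18 beside 0.05 over all genes, of which 22.1% were called lower and 24.3% higher, led by *Cmpk2*, a mitochondrial nucleotide kinase, and *Oasl2*, at log2 differences of −2.70 and −2.39. With 1 sample left out at a time the lower count ran from 8, without shPTN replicate 1, to 15, without shCtrl replicate 1. Without shPTN replicate 1 there was 1 higher, and without shCtrl replicate 2 there were 13 lower and 2 higher.

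The mean level of the tested effector genes is given beside *Slfn2* for each sample. It was 4.17, 4.85 and 4.57 log2 CPM in E0771 shCtrl and 3.87, 3.37 and 3.95 in shPTN samples. In E0771-LG cells it was 3.88, 5.26 and 4.06 in shCtrl and 2.90, 3.56 and 3.56 in shPTN samples. In each line the groups did not overlap, whereas those of *Slfn2* did in E0771-LG cells, where shPTN replicate 2 had more *Slfn2* than shCtrl replicates 1 and 3. The highest of the 12 samples, E0771-LG shCtrl replicate 2, was also the highest for *Slfn2*, but not for *Slfn3*. In *MMTV-PyMT* tumors 0 effector genes were called, 30 of 31 had a lower mean with 3B10, beside 39.0% of all genes, and the median was −0.49 beside 0.05 over all genes, with 3 at an unadjusted p under 0.05, beside 2.7% of all genes. The mean level was 4.74, 4.53 and 5.22 log2 CPM in C44 and 3.60, 4.52 and 4.76 in 3B10 tumors, so the groups overlapped and 3B10 replicate 1 stood apart below. Without that tumor, 22 of 31 were lower and the median was −0.11, and without C44 replicate 3 these were 25 and −0.27. In 4T1 tumors 12 of 31 had a lower mean, beside 48.4% of all genes, the median was 0.04 beside 0.01, and 0 had an unadjusted p under 0.05, beside 6.27%. Without 3B10 replicate 1 of 4T1, 25 were lower and the median was −0.14, and without 3B10 replicate 3 it was 0.21.

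**Figure D4:**
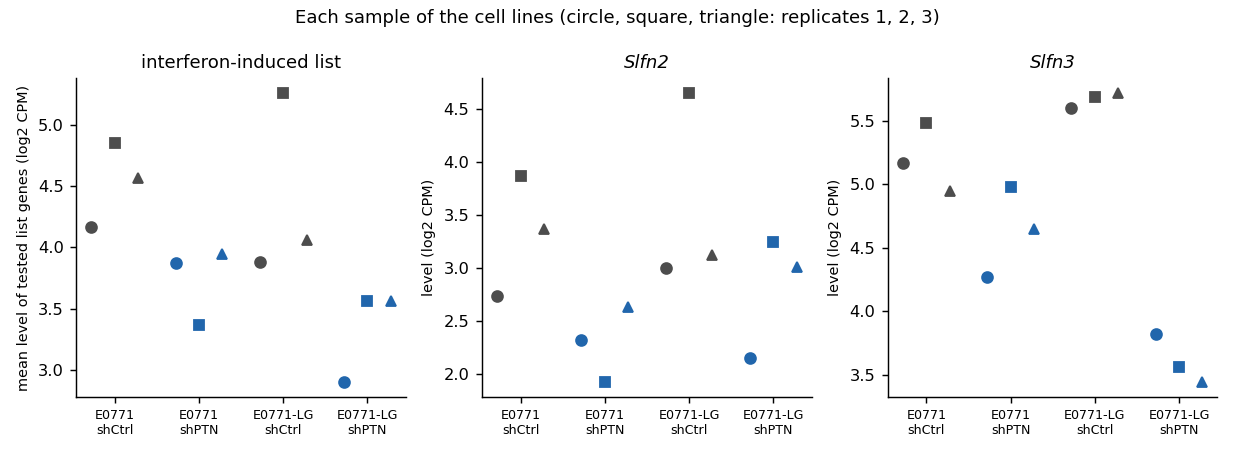
Mean level of the tested interferon-induced genes (left, log2 CPM) and level of *Slfn2* (middle) and *Slfn3* (right) in each of the 12 cell samples, gray for shCtrl and blue for shPTN, with circle, square and triangle for replicates 1, 2 and 3. E0771-LG shCtrl replicate 2 is the highest for the list (5.26) and for *Slfn2* (4.65), while the 3 E0771-LG shCtrl samples lie together for *Slfn3*, between 5.60 and 5.72.

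Interferon signalling genes, 16 of 16 in the table, were all tested. In E0771 cells 6 fell and 0 rose, with a median of −0.23 beside −0.03, where 11.7% of all genes were called lower, including the transcription factor *Irf7* at −1.21 (SE 0.24, limma adjusted p = 0.00605) and the ISG15 protease *Usp18* at −0.82 (SE 0.24, limma adjusted p = 0.0394). The count was 2 without shCtrl replicate 2, 2 without shCtrl replicate 3 and 3 without shPTN replicate 3. In E0771-LG cells 2 were called lower, *Irf9* and the kinase *Jak1*, and 1 higher, *Irf3*, with a median of −0.10 beside 0.05, where 22.1% and 24.3% of all genes were called lower and higher. It was 4 lower without shCtrl replicate 1 and 1 lower without shPTN replicate 1, and 2 higher without shCtrl replicate 2. Neither tumor model had a call, with medians of −0.14 in 4T1 and −0.08 in *MMTV-PyMT* tumors.

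Genes for the known actions of Schlafen proteins were called in both directions, in small numbers that are read beside the 11.7% called lower and 8.89% higher of all genes in E0771 cells and the 22.1% and 24.3% in E0771-LG cells. Of 7 tested genes of tRNA cleavage and protection, 2 fell and 1 rose in E0771 cells, *Rnh1* (−0.41), *Elac2* (−0.41) and *Trmt61a* (0.47), and 2 were called lower and 2 higher in E0771-LG cells, or 1 lower without shPTN replicate 2 of that line. The E0771 count of falls was 0 without shCtrl replicate 1 or 2 and 1 without shCtrl replicate 3, shPTN replicate 2 or shPTN replicate 3, and the count of rises was 1 without shCtrl replicate 1 and 0 with any other sample left out. With no filter 1 fell and 0 rose. *Elac2*, which trims tRNA 3′ ends, was lower in both lines, at −0.41 and −0.69. *Rnh1* was called lower in E0771 (−0.41) and higher in E0771-LG cells (0.64). Of 9 tested cell cycle partners, 2 fell and 3 rose in E0771 cells and 3 were called lower and 2 higher in E0771-LG cells, where the cyclin gene *Ccnd3* was lower in both (−0.67 and −0.63) and the inhibitor gene *Cdkn1b* higher in both (0.59 and 0.63). The falls in E0771 numbered 1 without shCtrl replicate 2 and 1 with no filter. In E0771-LG cells 1 was called higher when any sample but shCtrl replicate 2 was left out. *Ccnd2* of the same list was called higher in E0771 (0.64) and lower in E0771-LG cells (−0.64). *Cdkn2a* was at 0 in all samples of both lines. Of 10 replication stress genes, 2 fell and 1 rose in E0771 cells, and 2 were called lower and 2 higher in E0771-LG cells, with the checkpoint kinase gene *Atr* lower in both (−0.41 and −0.95). In E0771 cells the falls numbered 1 without shCtrl replicate 2 or shPTN replicate 3 and 0 without shCtrl replicate 3, and 1 with no filter. The rise numbered 3 without shPTN replicate 2 and 0 with any other sample left out. None of these 3 lists had a call in a tumor model.

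The genes beside the Schlafen cluster were examined because all members lie together. In the table, 18 other genes start within 500 kb of the outermost members, of which 11 were tested in E0771 and 12 in E0771-LG cells. In E0771 cells 3 of 11 fell and 0 rose, where 11.7% of all genes were called lower, namely *Slfn10-ps*, *Ap2b1* and *Ccl5*. *Slfn10-ps*, a Schlafen pseudogene inside the cluster that shares 13.52% of its 50-base windows with *Slfn9* and 11.84% with *Slfn8*, was 3.24, 3.95 and 3.26 log2 CPM in shCtrl and 2.28, 2.29 and 2.31 in shPTN samples. The groups did not overlap (log2 difference −1.19, SE 0.22, limma adjusted p = 0.00421). *Ap2b1*, a clathrin adaptor subunit, fell by 0.62 on the log2 scale (SE 0.10, limma adjusted p = 0.00224) and the chemokine gene *Ccl5* by 1.31 (SE 0.39, limma adjusted p = 0.0344). In E0771-LG cells 3 of 12 were called lower and 0 higher, a share near the 22.1% of all genes called lower, *Slfn10-ps* (−1.46), *Ap2b1* (−1.14) and the DNA ligase gene *Lig3* (−0.75). In the wider window of 1000 kb, 5 of 19 tested were called lower in E0771 and 8 of 20 in E0771-LG cells. Neither tumor model had a call among the 17 and 14 genes tested.

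**Figure D5:**
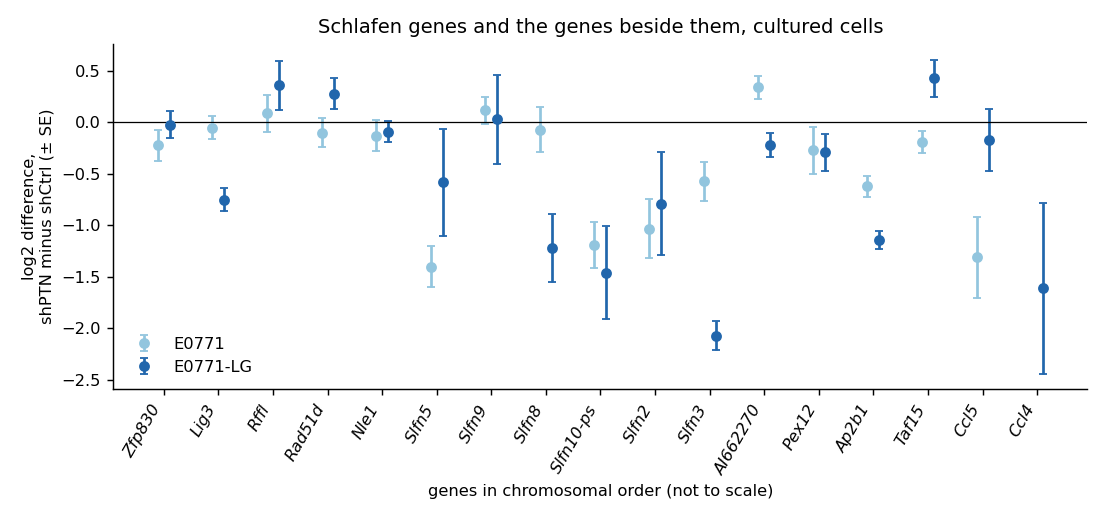
Log2 difference, shPTN minus shCtrl (vertical axis, ± SE), of the Schlafen genes and of the genes within 500 kb of them, in their order along the chromosome but not to scale, for E0771 (light blue) and E0771-LG cells (dark blue), 6 samples each. Values are negative in both lines at *Slfn10-ps*, *Slfn2*, *Slfn3*, *Slfn5* and *Ap2b1* among others, while *Slfn9* between *Slfn5* and *Slfn8* lies near 0. Bars are wide at *Slfn2*, *Slfn5*, *Slfn9* and *Slfn10-ps*, among others, in E0771-LG cells.

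Likeness to other genes was measured as the root mean square (RMS) difference of log2 values, each gene centered on its own mean, and is a description. Over the 12 cell samples, 10222 other genes tested in both lines were compared. The nearest to *Slfn2* were the interferon-induced *Cxcl10* (0.16), *Isg15* (0.25), *Oas1a* (0.27), *Ddx58* (0.29) and *Oas2* (0.31). The RMS of *Slfn2* about its own mean was 0.72. The highest sample for *Slfn2*, E0771-LG shCtrl replicate 2 (4.65 log2 CPM), adds to this likeness, which was not measured without it. The nearest to *Slfn5* were *Lipn* (0.32), *Ifih1* (0.37), *Ank2*, *Sema6d* and *Sgtb* (0.43 each), beside 0.78 for *Slfn5* itself. *Slfn3*, with 0.80 about its own mean, was nearest to *Pggt1b* and *Prrg4* (0.20 each), *Klhl11* and *Rbpj* (0.26 each) and *Garre1* (0.27). The 12 samples include the E0771-LG contrast that chose the family by *Slfn3*, so nothing is read from these neighbours of *Slfn3*. *Slfn8* was nearest to *Lgals9* (0.25), *D030028A08Rik* and *Mxra8* (0.29 each), *Nckap5l* (0.30) and *Tmed8* (0.31), with 0.61 about its own mean. *Slfn9* was nearest to *Arid4b* and *Ankrd11* (0.12 each), *Rrbp1* (0.14), *Casp8ap2* (0.15) and *Tln2* (0.17), with 0.42 about its own mean.

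Over 6 tumors the nearest genes have little to distinguish them. In *MMTV-PyMT* tumors *Slfn8* was nearest to *Irgm2*, *Irgm1*, *Parp12*, *Cmpk2* and *St6galnac2*, at RMS differences of 0.12 to 0.17 beside 0.49 for itself, and *Slfn2* to *Bnip3*, *H2-K1*, *Ube2l6*, *Efna5* and *Slc38a1* (0.15 to 0.19 beside 0.45). In 4T1 tumors *Slfn1* was nearest to the myeloid genes *Fpr2* and *Fcgr4* among others (*Hopx*, *Pilrb2* and *Pilrb1*), at 0.21 to 0.23 beside 0.60. In the same tumors *Slfn2* was nearest to *Lgr4*, *Chn1*, *Ifi44*, *Tmco4* and *Psmb9* (0.08 to 0.12 beside 0.35). *Slfn3* was nearest there to *Zfp382*, *Sik2*, *Frs2*, *Rassf8* and *Arhgap5* (0.07 to 0.08 beside 0.44), and *Slfn8* to *Gclm*, *Gsdme*, *Phf13*, *Erf* and *Unc119b* (0.07 to 0.08 beside 0.22). *Slfn9* was nearest to *Ccnt1*, *Zfp780b*, *Trim46*, *Usp31* and *Kntc1* in 4T1 tumors (0.03 to 0.07 beside 0.43) and to *Kifc3*, *Rasa1*, *Dock4*, *Cdc27* and *Luzp1* in *MMTV-PyMT* tumors (0.04 to 0.05 beside 0.25). *Slfn5* was nearest to *C1galt1*, *Fzd4*, *Kif21b*, *Lif* and *Lyst* in 4T1 tumors (0.14 to 0.17 beside 0.57). *Slfn4* was nearest to *Cstdc4*, *Fbxo2*, *Mir7036*, *Notum* and *Mir3061* in 4T1 tumors (0.13 to 0.24 beside 0.54) and to *Nr2f1*, *Lgr6*, *Htra3*, *Fndc4* and *Fcgr4* in *MMTV-PyMT* tumors (0.21 to 0.28 beside 0.73).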

How the data were processed

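Per the labels and the study's methods, the authors sequenced the RNA, aligned reads to mm10 (GRCm38) with HISAT2, counted them on genes with featureCounts and used edgeR and limma. They deposited 1 table of log2 values for 24 samples and 12091 genes, and the step that made these values and the filter on genes are not given in the sources used here. In 18 samples, 100% of the values were whole reads (within 0.02 reads) above an offset of 0.5 reads, as log2 CPM is made. The 4T1 values had no such steps and were taken as normalized for length, from how levels changed with exon length.

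The deposited log2 values were fitted with limma 3.58.1 (R 4.3.3; lmFit, eBayes with trend and robust), each experiment alone, two-sided, with Benjamini-Hochberg adjustment over all genes tested. The edgeR pipeline was not run, because the table holds log2 values. Reads could be recovered in 18 samples, where voom was run as an alternative. Genes named follow a rule: all members, at most 4 genes per list and experiment, *Ptn*, at most 5 nearest genes per member, and at most 6 called genes beside the cluster. The script was tested on simulated data. Members and lists were chosen with earlier results of these data known. Alternatives covered filters, eBayes that is not robust, a pseudocount of 1, quantile and median-of-ratios scaling, voom on recovered reads, the 18 samples fitted together, a block on the replicate number and left-out samples, and for the cluster a 1000 kb window. Gene positions are from GENCODE M21, which matched 12091 of 12091 genes, and promoters from RefSeq GRCm38.p6.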

Additional observations from a re-analysis of the deposited data

Results flagged for a closer look

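A difference in direction was looked for in 36 genes, the members, *Ptn* and the other genes named from the pathway lists and the cluster, between the 2 tumor models and between the 2 cell lines. It was kept where every PTN-inhibited sample of one experiment lay above its control mean and every one of the other below. No member met this, and 6 other genes did. The genes from the lists and the cluster entered because they were called in a cell line, so their changes there were already known. The share of all genes that meet the rule was not measured, and E0771-LG is the contrast that chose the family. The number is therefore a description only. Between the tumor models the limma interaction term did not call any of the 3 genes below (adjusted p = 1 for each, unadjusted p = 0.272 for *Slfn10-ps*, 0.0194 for *Oasl2* and 0.235 for *Atr*). The differences between the cell lines were not tested.

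*Slfn10-ps* was lower than its control mean in all 3B10 4T1 tumors (mean −0.39) and higher in all 3B10 *MMTV-PyMT* tumors (0.43), a difference of 0.83. The 4T1 mean rested mostly on 3B10 replicate 1, as the 3 tumors stood at −1.02, −0.12 and −0.04. C44 replicate 3 of 4T1, at a log2 value of 0.44, lay below every 3B10 tumor. *Oasl2* was higher in 4T1 (0.35) and lower in *MMTV-PyMT* tumors (−1.04), a difference of −1.39. Replicate 1 stood furthest from the control mean in both models. The values were 0.67, 0.23 and 0.15 in 4T1 and −1.98, −0.79 and −0.36 in *MMTV-PyMT* tumors. *Atr* was lower in 4T1 (−0.22) and higher in *MMTV-PyMT* tumors (0.16), a difference of 0.38. Its 3 values in 3B10 4T1 tumors were −0.46, −0.19 and −0.00. Between the cell lines, *Irf3* was lower in E0771 (−0.37) and higher in E0771-LG shPTN samples (0.57), a difference of 0.93. *Rnh1* was lower in E0771 (−0.41) and higher in E0771-LG shPTN samples (0.64), a difference of 1.05. *Ccnd2* was higher in E0771 (0.64) and lower in E0771-LG shPTN samples (−0.64), a difference of −1.28.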

How the results depend on the processing

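The number of members called in E0771 cells was 2. It was 1 with no filter and 1 with the 18 samples fitted together, when *Slfn2* was not called, and 1 to 2 when each sample was left out. The fit with 18 samples tests more genes and shares one estimate of spread. The cause was not tested further. The member counts of 0 in both tumor models and 0 for their difference were the same under every alternative run. Among member differences of the 3 tested experiments, under alternatives that keep all samples, 136 values kept direction and side of the threshold, 2 lost the call (*Slfn2* in E0771) and 1 gained it (*Slfn3* in E0771, −0.57 with the block on the replicate number, limma adjusted p = 0.00885).

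Samples with the same replicate number did not deviate together in all pairs of any experiment (correlations of −0.327, 0.436 and −0.253 in 4T1, −0.036, 0.132 and 0.208 in *MMTV-PyMT*, −0.027, 0.141 and −0.037 in E0771 and 0.158, 0.237 and −0.117 in E0771-LG). With the replicate block, calls over all genes went from 2140 to 2450 in E0771 and from 4826 to 5012 in E0771-LG, 0 and 0 in tumors, members called from 2 to 3 in E0771, and 0 for the difference between models. Not every sample correlated best with its own number.

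When each sample was left out, these log2 differences of tested members changed sign, none of them called: *Slfn2* (−0.27 to 0.29), *Slfn3* (−0.56 to 0.05), *Slfn4* (−0.56 to 0.18), *Slfn8* (−0.05 to 0.28) and *Slfn9* (−0.30 to 0.29) in 4T1, *Slfn9* (−0.15 to 0.26) in *MMTV-PyMT* and *Slfn8* (−0.24 to 0.11) in E0771. In E0771-LG, where members have no test, *Slfn9* (−0.45 to 0.39) and *Slfn5* (−0.98 to 0.01) changed sign. *Slfn5* in E0771 stayed between −1.54 and −1.25 and *Slfn3* in E0771-LG between −2.17 and −1.98. Left-out samples were added for the pathway lists and neighbours after the data were seen. Over the 5 lists, E0771 cells had 27 genes lower (14 to 26, with 14 without shCtrl replicate 2 and without shCtrl replicate 3) and 5 higher (3 to 6), which were 18 and 4 with no filter. E0771-LG cells had 21 lower (16 to 27) and 7 higher (6 to 10), which were 21 and 8 with no filter. Within 1000 kb of the cluster, 5 genes were lower in E0771 and 8 in E0771-LG cells. Within 500 kb, left-out samples gave 2 to 3 lower and 0 to 1 higher in E0771, and 2 to 3 lower and 0 to 1 higher in E0771-LG.

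Over all genes, calls in E0771 cells went from 2140 to 1110 with 18 samples fitted together and to 1171 without shCtrl replicate 3, and in 4T1 tumors from 0 to 2 without 3B10 replicate 1. Reads were few or absent for *Slfn1* and *Slfn4* in cells, and few for *Slfn1* and *Slfn3* in *MMTV-PyMT* tumors. Whether depth or low expression accounts for this was not tested. With 3 samples per group, a difference that misses the threshold is not shown to be absent.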
